A study of Zea mays with 12 samples.

Results

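Chromosome 8 is one of the 10 chromosomes of maize, and its replication timing map is made of all segments that the deposited segmentation places on it. These were 1765 of the 20613 segments of the genome, and the other 9 chromosomes held 18848. The map came from Repli-seq of root tips of the inbred B73, in which newly made DNA is labelled, nuclei are sorted by stage of S phase and the labelled DNA is sequenced. Roots of 3-day seedlings received EdU, a thymidine analogue, at 25 µM for 20 min and then 100 µM thymidine, and nuclei of the terminal 1 mm were sorted by flow into a G1 group and groups from early, mid and late S phase. Each of the 4 groups had 3 biological replicates, all of the same genotype and labelled in the same way. Labelled DNA of the early, mid and late groups was immunoprecipitated, while the G1 reference was sequenced without this step. No group was split by cell type, so a profile mixes the cell types among the sorted nuclei.

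Each segment carries a class. ES stands for early, MS for mid and LS for late S phase, as the names are read here, and ESMS and MSLS for a pair of adjacent stages. The values are classes in windows of 10 kb, with no signal, no count and no column per library. The depth behind a segment is therefore unknown, and the spread between replicates cannot be shown. The SDs printed here run over the other 9 chromosomes, which are parts of the same genome and not replicate plants. With 1 chromosome set against 9, an exact two-sided permutation test over chromosomes cannot go below p = 0.1. No difference between chromosome 8 and the rest can therefore pass 0.05, and each is given as a value with its rank.

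Replication in S phase follows an order. Open, gene-rich chromatin generally replicates early and compact, repeat-rich heterochromatin late, and regions that replicate together form domains that can join many origins. In maize, genes are concentrated towards the chromosome ends, while the regions around centromeres are rich in retrotransposons. Maize chromosomes may also carry knobs, blocks of tandem repeats that are known to replicate late. Positions of centromeres, knobs and repeats were not used here, so no stretch described below can be tied to one of them.

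MS was the largest class of chromosome 8, as it was on all others but chromosome 5. LS took a smaller share than on most other chromosomes. MS took 67.04 Mb in 535 segments, or 37.1% of the 180.5 Mb with a class, and the other chromosomes stood at 32.8% ± 2.14 (SD, n = 9), from 30.3% to 36.0%. LS took 27.6 Mb in 128 segments, or 15.3%, against 21.4% ± 3.52 (SD, n = 9), and only chromosome 1 was lower, at 14.5%. ES was close to the other chromosomes, with 51.71 Mb in 280 segments, or 28.7% against 27.5% ± 3.90. The mixed classes held 10.1% (ESMS, 551 segments) and 8.75% (MSLS, 271 segments), against 8.58% ± 1.13 and 9.72% ± 1.59. The MS share was the highest of the 10 chromosomes, and its exact two-sided permutation p was 0.1, the smallest possible. Over the 22 values compared in this way, the smallest Benjamini-Hochberg adjusted p was 0.978. Chromosome 8 lay outside the range of the others in 3 of these 22 values (13.6%). For every value some chromosome is highest and some lowest, so a rank alone, here and below, does not set chromosome 8 apart.

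In the middle 60% of chromosome 8, MS was higher and LS lower than in that part of the other chromosomes. MS took 42.0% against 34.8% ± 2.63 in the others (SD, n = 9), above all 9, whose highest was 38.4%. LS took 20.1% there against 30.6% ± 4.40, below all 9 others, whose lowest was 23.8%. The size and rank depend on the part taken, as 2 widths tried after seeing the data show: LS stood at 18.7% against 25.2% in the middle 80%, where chromosome 8 ranked 9 of 10, and at 15.2% against 37.2% in the middle 40%. MS ranked highest at both widths, at 40.99% against 35.05% and at 47.9% against 32.4%. The midpoint of all LS sequence lay at 29.4% of the length on chromosome 8 and at 39.4% ± 7.79 elsewhere. Central parts of equal width therefore leave out different portions of the LS. With the outer 30% taken at each end, LS in the outer parts minus the middle was 0.107 percentage points, against -26.3 elsewhere. ES in the middle 60% stood at 16.3% against 13.8% ± 3.68 and ranked 3 of 10. At the ends chromosome 8 was near the middle of the order: ES took 32.5% of the first 20% and 62.2% of the last 20%, against 34.8% ± 16.8 and 61.3% ± 11.9.

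**Figure D1:**
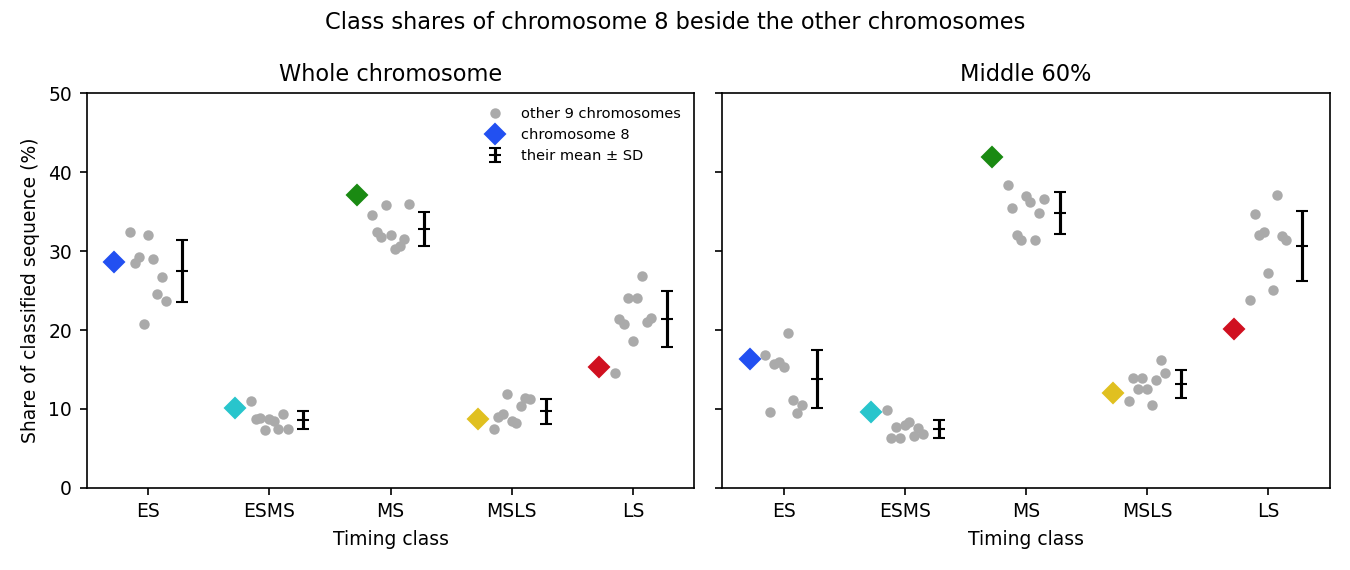
Share of classified sequence (y axis, %) in each timing class (x axis) for the whole chromosome and for its middle 60%. Diamonds are chromosome 8, grey points the other 9 chromosomes, and bars their mean ± SD; for MS chromosome 8 lies above every grey point in both panels (37.1% and 42.0%), and for LS in the middle 60% it lies below all of them (20.1%).

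Along the chromosome, 37 steps of 5 Mb (the last one shorter) fell into stretches of different makeup. The borders of these stretches were set after the values had been seen, so they are a description only. From the start, an early and mid stretch reached to 30 Mb, a late stretch to 60 Mb, a mid stretch to 115 Mb, an early and mid stretch with little LS to 160 Mb, a short late block followed, and the end was almost wholly early. The highest ES share was in step 36 (175000001 to 180000000) at 94.1% and the lowest in step 7 (30000001 to 35000000) at 0%. MS was highest in step 14 (65000001 to 70000000) at 64.6% and lowest in step 34 (165000001 to 170000000) at 2.86%. LS was highest in step 12 (55000001 to 60000000) at 74.4%, and 12 of the 37 steps held none.

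**Figure D2:**
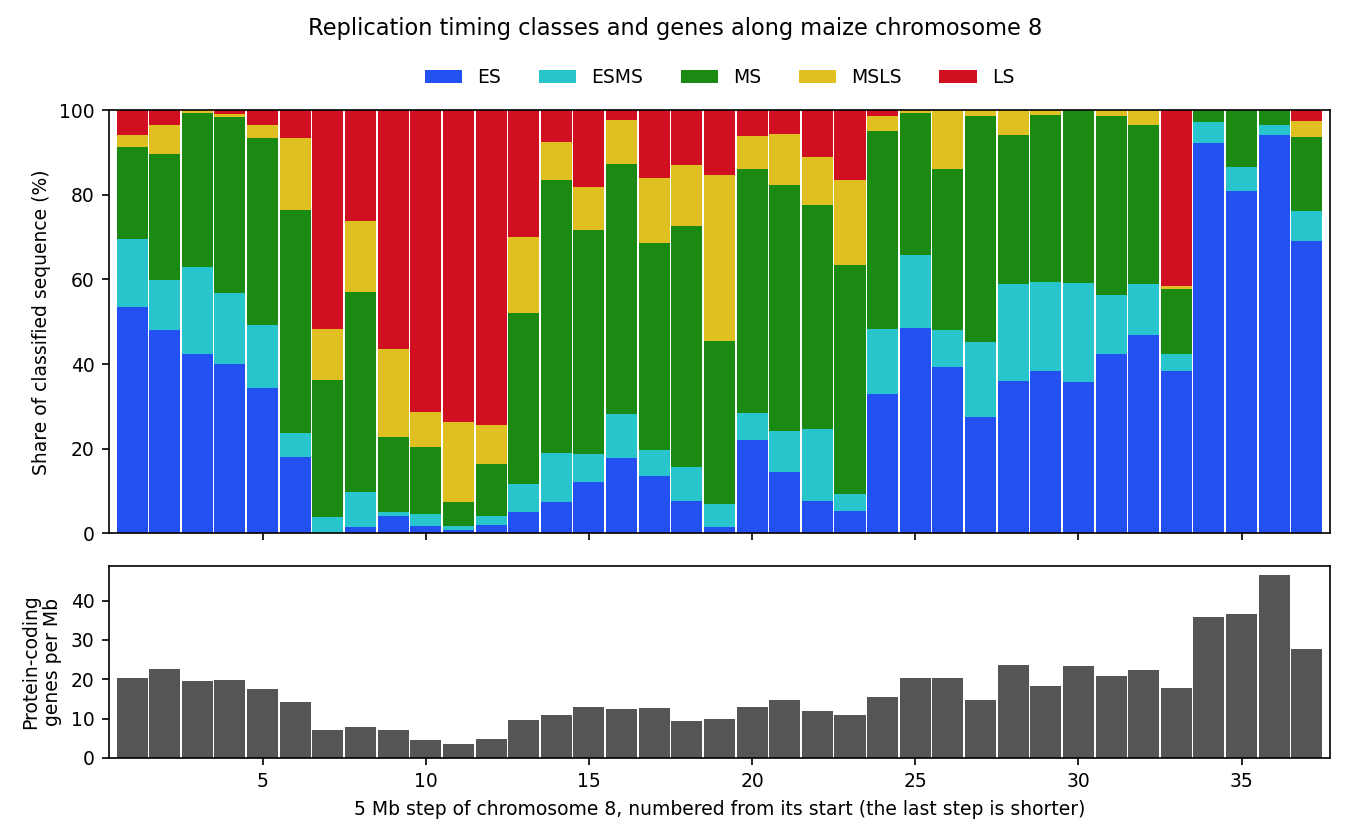
Top: share of classified sequence (%) in each of the 5 classes for the 37 steps of 5 Mb along chromosome 8. Bottom: protein-coding genes per Mb in the same steps. LS reaches 74.4% in step 12 and returns at 41.4% in step 33, ES reaches 94.1% in step 36, and gene density runs from 3.60 per Mb in step 11 to 46.6 in step 36.

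The first 30 Mb were a gene-bearing mixture of ES and MS in which the ES share was lower in each step than in the one before. ES went from 53.4% in step 1 through 48.0%, 42.3%, 40.1% and 34.3% to 18.0% in step 6, while MS went from 21.8% to 52.8%. LS stayed between 0% and 6.60% in these steps. The 63 ES segments of this stretch had a median length of 150 kb, and the longest, from 6170001 to 7350000, spanned 1.18 Mb and held 31 protein-coding genes. The stretch held 569 genes, or 19.0 per Mb. The chromosome itself opened late, with a 200 kb LS segment from coordinate 1, although step 1 had the highest ES share of the stretch.

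Between 30 and 60 Mb the map turned late. LS took 58.9% of this stretch, which is 16.4% of the chromosome but held 63.0% of its LS sequence. The change was abrupt at the scale of the steps: LS went from 6.60% in step 6 to 51.7% in step 7. Step 8 broke the stretch, with 26.2% LS and 47.3% MS, and the next 4 steps ran at 56.4%, 71.3%, 73.8% and 74.4% LS. On the far side LS stood at 30% in step 13 and at 7.60% in step 14.

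The late stretch was made of a few long LS segments among many short ones. Its 51 LS segments had a median of 150 kb, and the longest were 1.83 Mb (47280001 to 49110000, 10 protein-coding genes), 1.59 Mb (31730001 to 33320000, 1 gene) and 1.45 Mb (58620001 to 60070000, 3 genes). These were also the 3 longest LS segments of the chromosome. The longest run without ES or ESMS lay here, from 49430001 to 54480000 (5.05 Mb), where LS took 74.9% and 18 genes were found. The longest run without ES reached from 29520001 to 37500000 (7.98 Mb, 63 genes). Runs without ES were longer on most other chromosomes, at 11.2 Mb ± 3.43 (SD, n = 9), and only chromosome 9 had a shorter one (6.36 Mb).

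The late stretch was not free of early segments. It held 10 ES segments with a median of 45 kb and none above 100 kb, which carried 7 genes, or 14.0 per Mb. In the whole stretch there were 175 genes, 5.83 per Mb, of which 48 lay in LS, 62 in MS and 28 in ESMS. Among its named genes was fl3, a PLATZ-type factor known for its role in endosperm filling, which lay in the 1.25 Mb LS segment from 52690001 to 53940000 together with 6 other protein-coding genes. Of the 15 listed symbols found on chromosome 8, fl3 alone lay in LS, beside 2.55% of all its protein-coding genes with a class. MIR408b, a microRNA gene, lay in MS in an 80 kb segment (39490001 to 39570000) of the same stretch.

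The position of the late stretch along the chromosome was nearer to the start than on most other chromosomes. The midpoint of all LS sequence lay at 29.4% of the chromosome length (53.6 Mb), against 39.4% ± 7.79 elsewhere (SD, n = 9), and only chromosome 6 was lower, at 27.7%. In 20 equal parts of each chromosome, LS on chromosome 8 was highest between 25% and 30% of the length, at 75.5%. The highest part of the other chromosomes held 77.7% ± 8.35, so the height of the peak was within their spread. LS at or above 50% covered 2 of the 20 parts on chromosome 8 and 3.22 ± 0.667 elsewhere, from 2 to 4.

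Parts of the profile lay outside the range of the other 9 chromosomes. Between 40% and 45% of the length, LS stood at 3.62% on chromosome 8 and at 53.2% ± 20.6 elsewhere (SD, n = 9), with no other chromosome below 29.0%. MS in the same part stood at 59.8% against 24.5% ± 13.4, and ES at 17.7% against 3.45% ± 2.36, both above all 9 others. Between 25% and 30% the differences ran the other way, with LS at 75.5% against 35.2% ± 23.3 and MS at 9.40% against 33.9% ± 14.3. Counted over the 20 parts, MS was outside the others' range in 6 parts, LS in 4 and ES in 3. Over all 10 chromosomes, 20.0% of parts lay outside for MS, 20.0% for ES and 16.0% for LS, so nothing can be read from counts of this size alone. Of the MS parts 5 lay above the range and 1 below, and the 5 were the neighbouring parts from 35% to 60% of the length.

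**Figure D3:**
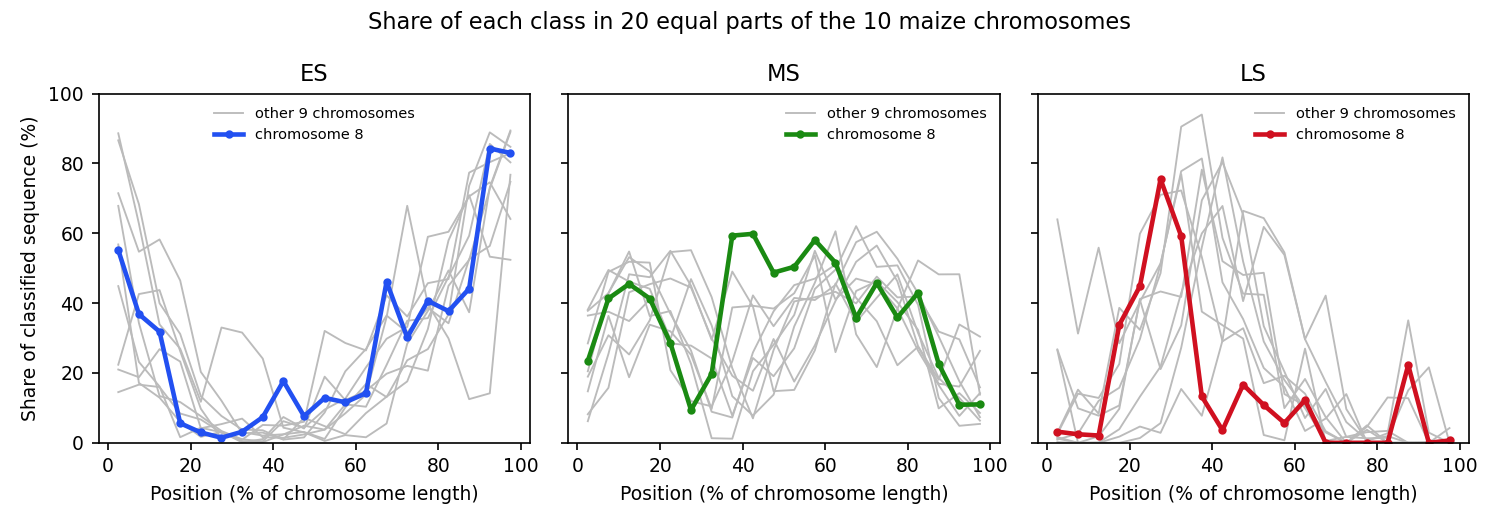
Share of ES, MS and LS (y axis, % of classified sequence) in 20 equal parts of each chromosome (x axis, % of chromosome length from the start). Coloured lines with points are chromosome 8 and grey lines the other 9 chromosomes; between 40% and 45% of the length chromosome 8 has 59.8% MS and 3.62% LS, outside the grey lines in both panels.

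The stretch from 60 to 115 Mb was the mid-S part of the chromosome. MS took 53.1% of it, between 38.6% and 64.6% in its 11 steps. These steps, 30.2% of the chromosome, held 43.3% of the MS sequence of chromosome 8 and 52.8% of its MSLS sequence. MS took at least 50% in 10 of the 37 steps of the whole chromosome, or 27.0%, against 16.8% ± 5.41 of steps elsewhere (SD, n = 9), the highest of the 10 chromosomes ahead of chromosome 10 at 25.8%. The longest MS segment of the genome lay at its near end, from 65380001 to 66430000 (1.05 Mb, 6 protein-coding genes, with a phenylalanine tRNA gene, TRNAF-GAA, as its first gene with a given symbol). It was bordered by ESMS on both sides, by 70 kb and by 20 kb. The third longest of chromosome 8, from 112810001 to 113440000 (630 kb, 8 genes), lay at the far end of the stretch. The second longest, from 115120001 to 115880000 (760 kb, 12 genes), came just after it.

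Within this mid stretch the map switched often between short segments. Its 202 MS segments had a median of 100 kb, its 68 ES segments 70 kb and its 63 LS segments 100 kb, with none of the LS segments above 360 kb. Boundaries between touching segments stood at 11.4 per Mb, and steps 16 and 17 had the most of any step, 13.4 per Mb each. In step 19 (90000001 to 95000000) MSLS was the largest class, at 39.4%, as in no other step of chromosome 8. The longest MSLS segments of chromosome 8 lay there, from 90640001 to 90940000 (300 kb, 3 genes) and from 92690001 to 92930000 (240 kb, 2 genes). Another segment of 240 kb, also with 2 genes, lay further along, from 129350001 to 129590000.

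Of the 76 listed symbols, act1, tub2 and mcm6 lay in this mid stretch. act1, an actin, was in a 560 kb MS segment (102190001 to 102750000), and tub2, a beta tubulin, in one of 180 kb (106810001 to 106990000). mcm6, a subunit of the helicase that opens DNA at replication forks, was in the 630 kb MS segment at the far end. The stretch held 643 protein-coding genes, 11.7 per Mb, of which 317 were in MS and 154 in ES.

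From 115 Mb the map turned earlier again, and LS was nearly absent. ES went from 5.23% in step 23 to 32.998% in step 24 and 48.5% in step 25, while LS went from 16.5% to 1.41% and 0%. A run of 45.14 Mb without any LS segment reached from 115070001 to 160210000. It covered 24.7% of the chromosome, against 18.2% ± 7.22 for the longest such run elsewhere (SD, n = 9), the third highest of the 10. ES and MS shared this run almost evenly, at 38.8% in 111 segments and 40.7% in 147, and ESMS took 16.9% in 207.

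In this stretch ES and MS alternated in short segments. ES segments had a median of 110 kb and MS segments 90 kb, and none of either exceeded 760 kb. The 3 longest ESMS segments of the chromosome were 170 kb (137030001 to 137200000, 5 genes), 160 kb (139990001 to 140150000, 6 genes) and, in the first stretch, 150 kb (5410001 to 5560000, 5 genes). The stretch held 894 protein-coding genes, 19.9 per Mb. Of the genes of this stretch, 486 lay in ES, and 3 of the listed symbols lay here, 2 in ES and 1 in ESMS. zcn8, a florigen-type gene of the FT family that promotes flowering, was in a 70 kb ES segment (126640001 to 126710000) bordered by ESMS on both sides. lcyE, the lycopene epsilon cyclase of carotenoid synthesis, was in a 760 kb ES segment (142310001 to 143070000) with 14 other protein-coding genes. lg4, a knotted1-type homeobox gene, was in an 80 kb ESMS segment (134390001 to 134470000).

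A late block lay just after 160 Mb, between the early and mid stretch and the early end of the chromosome. It consisted of a 600 kb LS segment (160210001 to 160810000) without protein-coding genes and a 1.41 Mb LS segment (160860001 to 162270000) with 1. Between them lay 50 kb without a class. The block held 7.27% of the LS sequence of the chromosome, and step 33 had 41.4% LS between 0% in step 32 and 0% in step 34. No other LS segment lay between 115070001 and the last 61.2 kb of the chromosome.

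Early DNA lay close to the late block on both sides. On its near side an ES segment of 280 kb with 11 genes ended at 160150000, 60 kb before the first LS base, with 10 kb of unclassified sequence, 10 kb of MS and 40 kb of MSLS between. On its far side LS touched MS directly at 162270000, the only boundary of this kind on chromosome 8 and 1 of 31 in the genome. After 60 kb of MS an ES segment began, and a 1.17 Mb ES segment with 53 genes followed from 162550001 to 163720000. Of the 51 LS segments of at least 1 Mb in the genome, 10 had ES within 100 kb on one side, and 2 of these were among the 6 on chromosome 8. The other was the 1.83 Mb segment of the late stretch, 50 kb from an ES segment.

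A step that holds at least 30% of both ES and LS occurred once among the 432 steps of the genome, in step 33. This did not hold with other steps, which were tried after the value had been seen: with steps shifted by 2.5 Mb, chromosome 8 had 0 such steps and chromosome 7 had 1. With steps of 2.5 Mb there were 0 on chromosome 8 and 2 elsewhere, and with a limit of 20% there were 1 and 7. Long LS segments near the high-coordinate end were also found elsewhere. Of 196 LS segments of at least 500 kb, 10 lay in the last 20% of a chromosome, 2 of them on chromosome 8, 3 each on chromosomes 4 and 7 and 2 on chromosome 5.

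The last 20 Mb were the early end of the chromosome. From 162270001 to 182260000, a run of 19.99 Mb held no LS and no MSLS, and ES took 84.1% of it. In steps 34, 35 and 36 ES took 92.2%, 80.9% and 94.1%. Chromosome 8 had 8 ES segments that reached 1 Mb, of which 7 lay after the late block, and the other was the 1.18 Mb segment in the first stretch. The longest were 1.74 Mb (178720001 to 180460000, 76 protein-coding genes), 1.68 Mb (177010001 to 178690000, 92 genes) and 1.60 Mb (165830001 to 167430000, 58 genes). Their first genes with a given symbol were tRNA genes, TRNAD-GUC in the first and second and TRNAL-AAG in the third. Such runs were longer on most other chromosomes, at 26.4 Mb ± 10.6 (SD, n = 9), and chromosome 8 was eighth in rank.

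This run held 745 of the 3032 protein-coding genes and 5 of the 15 listed symbols found on chromosome 8. gst1, a glutathione S-transferase of detoxification, lay in the longest ES segment. ms8, a glycosyltransferase gene needed for anther development, was in an ES segment of 950 kb (171580001 to 172530000) with 37 other protein-coding genes. psy2, a phytoene synthase of carotenoid synthesis, was in an ES segment of only 60 kb (174760001 to 174820000). Exceptions within the early end were sps1, a sucrose phosphate synthase, in a 30 kb ESMS segment between ES and MS (168230001 to 168260000), and elm1, which acts in phytochrome chromophore synthesis, in a 470 kb MS segment (164610001 to 165080000). The very end was late: the last segment, from 182350001 to 182411202, was LS and held no protein-coding gene. Of the 10 chromosomes, 5 began with an LS segment and 3 ended with one, and chromosome 8 was the only one with LS at both ends. The LS segments that ended chromosomes 2 and 3 spanned only 5.19 and 7.77 kb. The LS segments that opened chromosomes 6 and 9 began at 240001 and 90001, after sequence without a class.

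**Figure D4:**
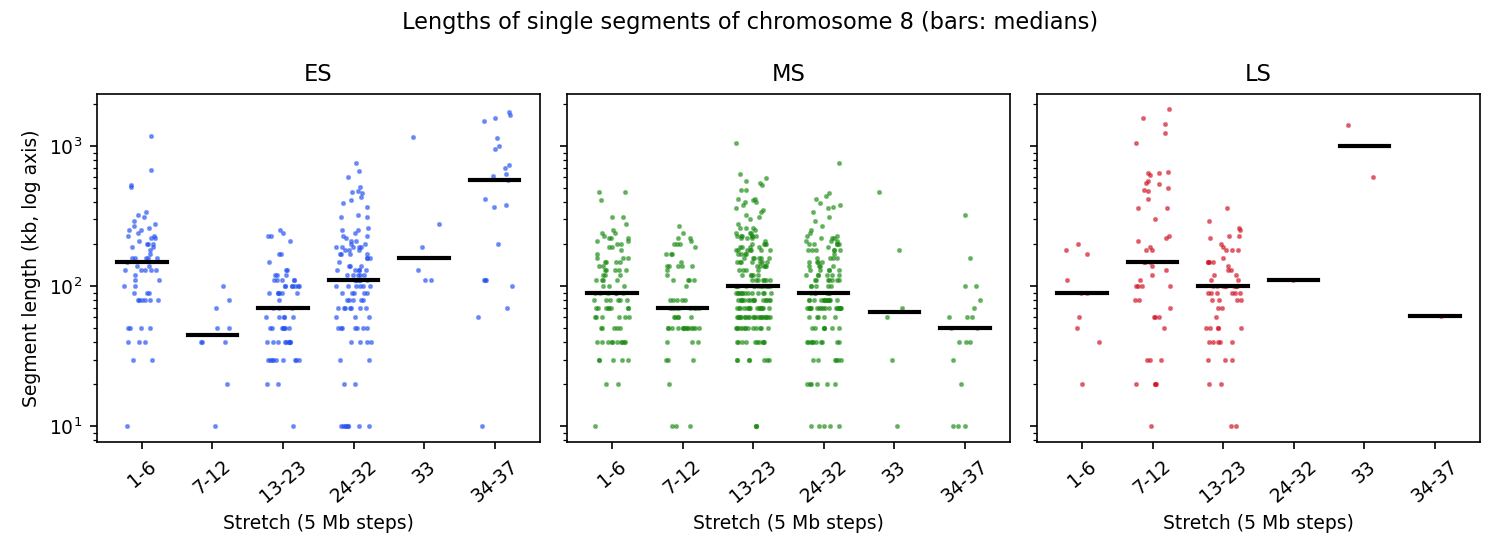
Length of each ES, MS and LS segment (y axis, kb, log axis) in 6 stretches of chromosome 8 (x axis, by the numbers of their 5 Mb steps); each point is a segment and black bars are medians. The ES median is 570 kb in steps 34 to 37 and 45 kb in steps 7 to 12, while the MS medians lie between 50 and 100 kb.

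Domain length varied along chromosome 8. ES segments had a median of 570 kb in the last 4 steps, 150 kb in the first 6, 110 kb in steps 24 to 32, 70 kb in the mid stretch and 45 kb in the late stretch. Over the whole chromosome the medians were 110 kb (ES), 20 kb (ESMS), 90 kb (MS), 40 kb (MSLS) and 100 kb (LS). The other chromosomes stood at 108 kb ± 10 for ES and 86.7 kb ± 5.00 for MS, and each of them had 20 kb for ESMS and 40 kb for MSLS. LS segments were shorter than on most, with 127 kb ± 18.0 elsewhere (SD, n = 9) and a lowest value of 100 kb on chromosome 2. Segments of at least 300 kb held 24.3% of MS sequence on chromosome 8 and 17.4% on the others pooled. For ES these shares were 49.4% and 50.01%, and for LS 60.3% and 60.5%.

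LS segments were farther apart than on the other chromosomes. The middles of consecutive LS segments were 520 kb apart at the median, against 447 kb ± 21.2 elsewhere (SD, n = 9), above the 425 to 480 kb of the other chromosomes. ES segments were 400 kb apart, against 421 kb ± 33.4, which is within their spread. From an LS segment to the nearest ES segment the median distance was 355 kb, against 444 kb ± 97.6, less than 1 window of 10 kb below the lowest of the others (360 kb on chromosome 2). For LS segments of at least 500 kb it was 560 kb against 626 kb ± 266, and chromosome 8 ranked 8 of 10.

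Boundaries were about as frequent as elsewhere, and more of them lay between ESMS and MS. Chromosome 8 had 1681 boundaries between touching segments, 9.31 per Mb, against 9.33 per Mb ± 0.354 (SD, n = 9). Of these, 642 separated ESMS from MS, 38.2% against 32.8% ± 2.52 elsewhere, the highest of the 10 chromosomes. Boundaries between MSLS and LS numbered 238, or 14.2% against 18.6% ± 3.08, with only chromosome 1 lower at 12.2%. With the classes ranked from early to late, changes to the next class made up 97.2% of boundaries, against 96.7% ± 0.368, and the direct changes were 46 between ES and MS and 1 between MS and LS. Whether the way classes were assigned favours such changes was not tested.

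Local peaks and valleys were counted next. A peak is a segment earlier than both touching neighbours and a valley one later than both, and chromosome 8 had 431 peaks and 430 valleys among 1603 segments with touching neighbours on both sides. Peaks that reached only ESMS numbered 121, or 6.70 per 10 Mb, against 5.09 ± 0.357 elsewhere (SD, n = 9), above the highest of the others (5.52 on chromosome 2). ES peaks stood at 12.4 per 10 Mb against 12.02 ± 1.56, within the others' spread. Valleys that ended in MS numbered 225, or 12.5 per 10 Mb against 10.6 ± 1.86, and LS valleys 111, or 6.15 against 8.15 ± 1.39. Only chromosome 1 had fewer LS valleys per 10 Mb.

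Sequence without a class was scarce on chromosome 8. It came to 1.94 Mb in 83 gaps, or 1.06% of the chromosome, below the other 9, whose lowest was 1.21% on chromosome 5. The longest gap was 180 kb (31550001 to 31730000) and bordered the second longest LS segment. The next were of 70 kb each, 1 in the late stretch (51730001 to 51800000) and 1 in step 33 (164540001 to 164610000).

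Gene density varied with class along chromosome 8. In RefSeq's genes for Zm-B73-REFERENCE-NAM-5.0 there are 4116 genes on the chromosome, 3032 of them protein-coding. The segmentation's build was not given in the sources used here. On chromosome 8, gene counts and ES in windows of 10 kb correlated best at an offset of 0 kb among offsets up to 500 kb in either direction. The correlation was weak, with a Pearson r of 0.221 at 0 kb and of 0.216 and 0.219 at -10 and 10 kb. At -500 and 500 kb it was 0.131 and 0.120. Of the 3014 protein-coding genes with a class at their midpoint, 1649 (54.7%) were ES, 393 ESMS, 787 (26.1%) MS, 108 MSLS and 77 (2.55%) LS. Over the 37 steps the ES share and gene density had a Pearson r of 0.960 and a Spearman rho of 0.948, given as a description since neighbouring steps share domains. Gene density was lowest in step 11, at 3.60 per Mb with 73.8% LS, and highest in step 36, at 46.6 per Mb with 94.1% ES.

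Density by class was near that of the other chromosomes except in LS. ES held 31.9 protein-coding genes per Mb against 31.2 ± 1.82 (SD, n = 9), ESMS 21.5 against 21.1 ± 1.35, MS 11.7 against 11.5 ± 0.590 and MSLS 6.84 against 7.01 ± 0.618. LS held 2.79 per Mb against 3.79 ± 0.532, the lowest of the 10 chromosomes, whose next lowest was 3.26 on chromosome 1. The exact two-sided permutation p of the LS difference was 0.2. ES was 11.4 times as dense as LS, against 8.36 ± 1.11 times elsewhere. The share of genes in LS, 2.55%, was also below the 5.29% ± 1.57 of the others. No protein-coding gene lay in 83 of the 128 LS segments, in 203 of the 535 MS segments and in 31 of the 280 ES segments, of which the longest spanned 110 kb (133250001 to 133360000).

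**Figure D5:**
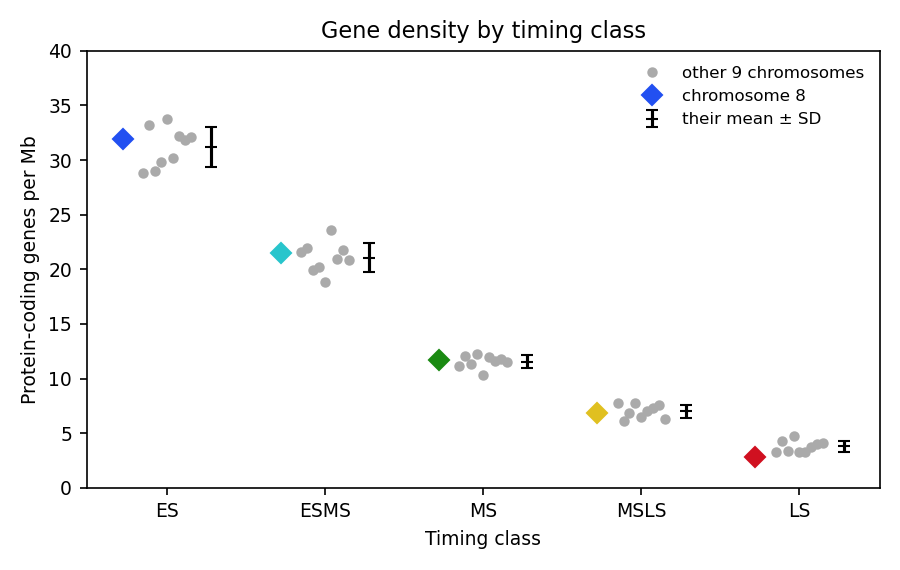
Protein-coding genes per Mb (y axis) in each timing class (x axis); diamonds are chromosome 8, grey points the other 9 chromosomes and bars their mean ± SD. Chromosome 8 lies among the other chromosomes in ES (31.9), ESMS, MS and MSLS, and below all of them in LS (2.79).

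The same class differed in gene density along the chromosome. ES held 41.8 genes per Mb in the last 4 steps and 40.9 in step 33, but 26.3 in the first stretch, 28.3 in steps 24 to 32, 27.1 in the mid stretch and 14.0 in the late stretch. The ES value of the late stretch rests on 7 genes. MS ranged from 9.58 per Mb in the late stretch to 20.9 in the last 4 steps. ESMS ran the other way, with its highest density, 29.5 per Mb, in the late stretch. It held 24.2 per Mb in the first stretch and 12.3 in the last 4 steps, and was lowest in step 33. The last 4 steps, 9.55% of the chromosome, held 21.8% of its protein-coding genes. Genes in LS were few but long for their class: their median length was 2423 bp, against 1872.5 bp ± 195 elsewhere (SD, n = 9), the longest of the 10 chromosomes. ES genes had a median of 3260 bp against 3349 bp ± 59.99, the shortest of the 10. The difference between ES and LS, 837 bp, was therefore the smallest of the 10 (1477 bp ± 224 elsewhere), and the LS median rests on 77 genes.

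Genes for RNAs were placed in part like the protein-coding genes. Transfer RNA genes, which encode the adaptors of translation, lay in ES in 49 of 78 cases (62.8%) and in LS in 1, against 58.9% and 4.07% of 786 on the other chromosomes, and step 36 alone held 10 of them. Small nuclear RNA genes, which encode parts of the spliceosome, had 18 of 22 in ES (81.8%, against 59.7% elsewhere) and none in LS. Small nucleolar RNA genes, which guide modification of ribosomal RNA, had 28 of 56 in ES (50%, against 55.2% elsewhere). Long noncoding RNA genes had 207 of 473 in ES (43.8%, against 36.2% elsewhere) and 49 in LS (10.4%, against 12.9%). Pseudogenes, transcribed or not, had 168 of 402 in ES (41.8%, against 39.2%) and 34 in LS (8.46%, against 13.5%). These counts carry no test, and neighbouring copies of a gene are not independent.

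MicroRNA genes lay in ES about as often as on the other chromosomes. Of 12, 6 lay in ES (50%, against 77 of 151 or 51.0% elsewhere), 1 in ESMS and 5 in MS. Some MIR159 genes lay on both sides of a local border. MIR159a lay in a 200 kb ES segment (10670001 to 10870000), and MIR159b, MIR159h, MIR159j and MIR159k lay in the MS segment that touches it (10870001 to 11020000), with no ESMS between. The first in ES by position was MIR169b, in a 680 kb segment (4730001 to 5410000). MIR319d and MIR159d shared an ES segment of 180 kb (27450001 to 27630000). miR159 is known to act on MYB and miR319 on TCP transcription factors in plants.

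Known genes of chromosome 8 were found in all 5 classes. Of 76 symbols on the list, 15 were placed on chromosome 8 by the gene table, and all 15 had a class: 6 were ES, 3 ESMS, 4 MS, 1 MSLS and 1 LS. Of these, 12 are given above with their stretches, and the other 3 lay near the start. pdc2, a pyruvate decarboxylase of fermentation, was in a 190 kb ES segment with 5 genes (15890001 to 16080000). bif1, an Aux/IAA protein of inflorescence development, was in a 100 kb ESMS segment between ES segments (18870001 to 18970000). ms23, a bHLH factor of tapetum development in the anther, was in a 70 kb MSLS segment (390001 to 460000) within step 1, between LS and MS. A gene could also span a border: of 3014 protein-coding genes with a class at both ends, 106 (3.52%) had different classes there.

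Families of regulators were spread over the classes, with small numbers in each. A family here is the set of genes matched by a list of names, which need not hold every member. MADS-box factors, many of which regulate flower development, had 0 of 4 members in ES, against 8 of 27 on the other chromosomes. zmm29 and MADS18 shared a 320 kb MS segment (104960001 to 105280000), MADS42 was in MS, and MADS35 was in a 60 kb LS segment (23580001 to 23640000). It was the only LS member of any family on the lists for chromosome 8. MYB factors had 2 of 5 in ES (first MYBR21), against 22 of 45 elsewhere, and bHLH factors 1 of 2 (bHLH55), against 22 of 42. bZIP factors had 3 of 4 (first bZIP72), against 15 of 26, and WRKY factors 2 of 2 (first WRKY42), against 11 of 20. The ERF factors EREB93 and EREB92 were both in ESMS, while 24 of 32 ERF and AP2 factors elsewhere were in ES. Homeobox factors on the list, which leaves out lg4 (in ESMS), had 3 of 4 in ES (first hox1a), against 16 of 33. Of the squamosa-promoter-binding factors, sbp18 was in ES and sbp9 in MS. Their list, which also takes in GRAS, DOF and C2H2 factors, had 19 of 29 in ES elsewhere.

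Families of growth genes were also counted. Auxin response and transport genes had 1 of 4 in ES (AUX34), against 29 of 44 elsewhere, with AUX6 in MS and AUX36 in MSLS. Cyclins had 1 of 2 in ES (cyc1), against 1 of 2 elsewhere. Aquaporins had 1 of 2 (tip2, in the 1.17 Mb segment that follows the late block), against 9 of 19. Tubulins and actins had 1 of 3 (act2), against 8 of 13. Both heat shock genes were in ESMS, while 6 of 10 elsewhere were in ES. NAC factors, core histones, expansins and the listed sugar and nitrate transporters had no member matched on chromosome 8. Together the lists held 53 genes of chromosome 8, 12 of them microRNA genes, with 23 (43.4%) in ES and 1 in LS, beside 54.7% and 2.55% of all its protein-coding genes. With so few members per family, no difference between chromosome 8 and the rest can be read from these counts.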

How the data were processed

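The labels gave each library its group and replicate number. Trimmomatic 0.39, Bowtie2 2.5.1 and SAMtools 1.9 are listed in the submitters' processing notes. How classes were assigned, how replicates were combined and which genome build was used were not given in the sources used here. Per the file header, the deposited segmentation, made by the authors, holds a class and coordinates per segment in windows of 10 kb.

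Shares, lengths, boundaries, peaks and valleys were computed from the segments as deposited, each chromosome being taken to end at its last segment. Shares are of sequence with a class and were split at step borders, while a segment or gene was counted in the step of its midpoint. Genes took their class at the midpoint too. Gene coordinates are not printed, and a local difference between builds could move an assignment. The permutation test uses the distance of each chromosome from the mean of the other 9, with Benjamini-Hochberg adjustment over 22 values. The functions were tested on simulated segmentations. Alternatives changed the step size and its start, the outer share, gaps, short segments and the chromosomes compared.

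Named were the listed symbols placed on chromosome 8, the 3 longest segments of each class with their first given symbol, the first ES member and the LS members of each family, and the steps with the highest and lowest shares. Other family members, the other microRNA genes, the late block and the borders of the stretches were chosen after their values were seen. Members and lists were chosen with earlier results of these data known. The result of 1 family list is not reported here, though its members are in the total over the lists. Sequences were not used here. Software was Python 3.11.15, pandas 2.3.3, numpy 2.4.6 and matplotlib 3.10.9.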

Additional observations from a re-analysis of the deposited data

How the results depend on the processing

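Boundary density on chromosome 8 minus that of the others was -0.0144 per Mb and changed sign easily: it was 0.0195 with boundaries counted across gaps of at most 20 kb, and from -0.0906 to 0.0308 with 1 of the other chromosomes left out. The difference in ES between outer and middle parts, -3.32 percentage points from the others, became 6.31 with the outer 10% at each end. In the middle 80%, an alternative chosen after seeing the data, the ES difference was -0.110 against 2.48 in the middle 60%. The highest steps moved with their size: with steps of 2.5 Mb the highest MS was 66.0% (from 130000001) and the highest LS 82.4% (from 160000001, the late block), and with steps of 10 Mb the highest MS was 56.1%. With steps shifted by 2.5 Mb the highest ES was 89.9% and the highest LS 76.6%. With each mixed class joined to its earlier neighbour, MS ranked 3 of 10 (45.9% against 42.5%). The cause of these changes was not tested. Of 198 differences with 1 chromosome left out, 4 changed sign, all of them boundary density. The ESMS and MSLS medians differed from the others by 0 throughout and have no sign to keep, and no value could pass the threshold. No paired analysis was possible because the segmentation has no column per library. For the same reason no library could be left out and the effect of depth is unknown.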
